A study of Mus musculus with 6 samples.

Results

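Kinesins are motor proteins that walk along microtubules, and centromere proteins (CENPs) build the site on each chromosome to which spindle microtubules attach. The genes described here were all rows of the count table whose Ensembl identifier maps in the GRCm38 annotation to a symbol starting with Kif and a digit, or with Cenp, with Cenpa left out. This gave 57 of the 16312 genes in the table: 11 mitotic kinesins, 16 transport kinesins, 9 other kinesins, 20 Cenp genes and Kif1bp. Kif1bp has a matching symbol but encodes a kinesin-binding protein, not a motor. Of the 57, 53 passed the filter on low counts. Kif1a (40 counts over the 6 libraries), Kif26a (102 counts), Kif27 (30 counts) and Kif28 (28 counts) did not pass and were not tested. Kif2b, Kif12 and Kif19b were not analysed here.

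The libraries were made from RNA of haematopoietic stem cells (HSCs), the self-renewing cells at the root of blood formation, sorted by flow cytometry from bone marrow. All were from male B6 control mice of a parabiosis study, named C57BL/6N in the series title. The 3 young libraries came from mice of 8 to 12 weeks and the 3 old libraries from mice of 22 months, each age being that at the procedure. The design states 3 biological replicates per age and nothing about pooling, and the labels name no transgene, deletion or drug. Sort markers and cell number are not given in the sources used.

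The libraries held 12494557 (old replicate 2) to 30931680 (young replicate 3) counts over 15235 to 15981 genes. The HSC markers Kit, Mecom and Hlf were present in every library. The summed level of 12 such markers was 3750 to 4312 CPM (counts scaled to library size) in young and 3943 to 4267 in old libraries. Within that list Slamf1 and Procr rose and Flt3, a gene of multipotent progenitors, fell. By the edgeR test described below, 2 of the 12 were called higher, 1 lower and 9 not called. Over all genes tested, 2.45% were called higher and 1.54% lower. Cd48, which HSC gates usually leave out, averaged 1.84 CPM in young and 0.32 CPM in old libraries.

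As background, a dividing cell needs a set of kinesins that its resting neighbours do not: some push the spindle poles apart, some carry or align chromosomes, and some build the central spindle at which the cell is finally cut. Their transcripts build up in G2 and mitosis. Transport kinesins carry organelles, vesicles and mRNA along microtubules and are made in resting cells as well. Most HSCs are quiescent and divide rarely.

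Old HSC libraries had less mRNA of most mitotic kinesins, and no transport kinesin passed the test. Over all 53 tested members, 8 fell and 0 rose, 39 had a log2 fold change below 0, and the median was −0.44. Of the 11 mitotic kinesins, 6 fell (Kif4, Kif11, Kif14, Kif15, Kif20b and Kif23) and none rose, and the log2 fold change of old over young lay below 0 for all 11, as it did for 51.8% of all genes tested. The median over the 11 was −0.88, with a range of −1.41 to −0.31, beside −0.02 over all 14288 genes tested. Of the 14 transport kinesins tested, 0 passed in either direction, and their median was 0.17. Calls are adjusted p-values under 0.05 from edgeR's quasi-likelihood test with Benjamini-Hochberg adjustment over all genes tested, by which 1.54% of genes were lower and 2.45% higher in old libraries, or 3.99% in either direction. In bulk RNA, fewer cells of a type and less RNA per cell cannot be told apart.

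**Figure D1:**
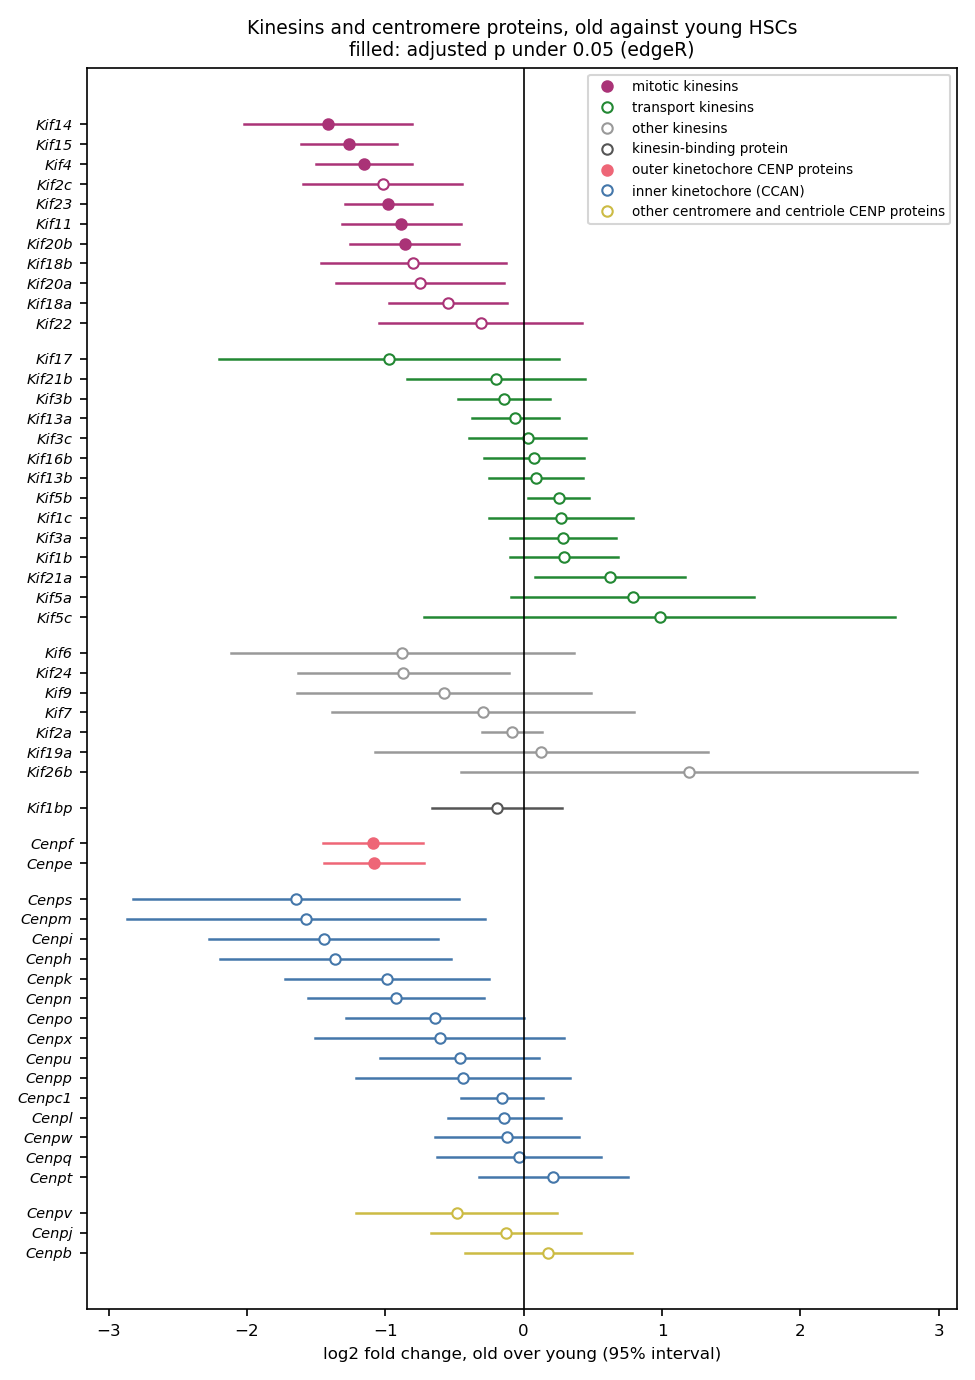
Log2 fold change of old over young libraries for the 53 tested genes (horizontal axis), grouped by class, with 95% intervals as lines; filled points passed an adjusted p of 0.05 in edgeR. All 11 mitotic kinesins lie left of 0, whereas 10 of the 14 transport kinesins lie right of it.

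The kinesins of spindle assembly fell. Kif15 (ENSMUSG00000036768.6, chr9:122951046-123018733), a plus-end motor that helps hold the spindle poles apart, read 187, 143 and 157 CPM in the young and 69.2, 78.3 and 55.7 CPM in the old libraries. Every old library was below every young library, and the log2 fold change was −1.26 ± 0.16 (SE; adjusted p = 0.00097 with edgeR), a 2.40-fold lower level. Kif11 (Eg5; ENSMUSG00000012443.4, chr19:37376403-37421859), the tetrameric motor that slides antiparallel microtubules apart and that Kif15 can partly replace, read 270, 166 and 220 CPM in young and 120, 146 and 90.4 CPM in old libraries. The groups did not overlap, although young replicate 2 stood only slightly above old replicate 2. The change was −0.88 ± 0.20 (SE; adjusted p = 0.0286 with edgeR).

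Kif4 (ENSMUSG00000034311.3, chrX:100625737-100727214), the chromokinesin that condenses chromosome arms and, with Prc1, sets the length of the central spindle, read 94.3, 84.4 and 75.7 CPM in young and 42.6, 34.9 and 36.7 CPM in old libraries. The 2 groups were far apart relative to their spread, and the log2 fold change was −1.15 ± 0.16 (SE; adjusted p = 0.00179 with edgeR). All mice were male, with a single X chromosome.

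Of the kinesins of the central spindle and cytokinesis, Kif23, Kif14 and Kif20b fell. Kif23 (MKLP1; ENSMUSG00000032254.10, chr9:61915905-61946774), the motor subunit of the centralspindlin complex, had closely grouped young values, 117, 116 and 119 CPM, against 63.0, 65.9 and 49.7 CPM in old libraries. Its log2 fold change was −0.98 ± 0.14 (SE; adjusted p = 0.00273 with edgeR), with no overlap. Kif14 (ENSMUSG00000041498.13, chr1:136466343-136531511), which recruits citron kinase to the midbody, had the largest change of the class: 72.0, 46.6 and 85.4 CPM in young and 24.2, 35.4 and 17.6 CPM in old libraries. The groups did not overlap, but both were wide, and the change was −1.41 ± 0.28 (SE; adjusted p = 0.0142 with edgeR). Kif20b (MPP1; ENSMUSG00000024795.11, chr19:34922361-34975745), which acts late in cytokinesis, read 225, 145 and 184 CPM in young and 96.8, 124 and 85.0 CPM in old libraries. Old replicate 2 came close to young replicate 2, and the change was −0.86 ± 0.18 (SE; adjusted p = 0.0197 with edgeR).

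The other 5 mitotic kinesins did not pass the test. Kif2c (MCAK), a kinesin-13 that takes microtubules apart at the centromere, came nearest to the threshold, with 25, 20.7 and 24.9 CPM in young and 8.65, 15 and 11.3 CPM in old libraries. Its groups did not overlap, and its log2 fold change was −1.02 ± 0.26 (SE; adjusted p = 0.0551 with edgeR). It passed in DESeq2 (0.0046), in limma-voom (0.0394) and with library sizes alone (0.0385). Kif18a, which damps chromosome movements at the metaphase plate, had no overlap either (−0.55, adjusted p = 0.166 with edgeR). Kif20a (MKLP2), which moves the chromosomal passenger complex to the central spindle, Kif18b, which trims astral microtubules, and Kif22 (Kid), which pushes chromosome arms away from the poles, had overlapping groups. Their log2 fold changes were −0.75, −0.80 and −0.31. In all, 8 of the 11 had no overlap and were lower in old libraries, against 10.8% of all genes tested, and 10 of 11 had an unadjusted p under 0.05 in that direction, against 7.63%.

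**Figure D2:**
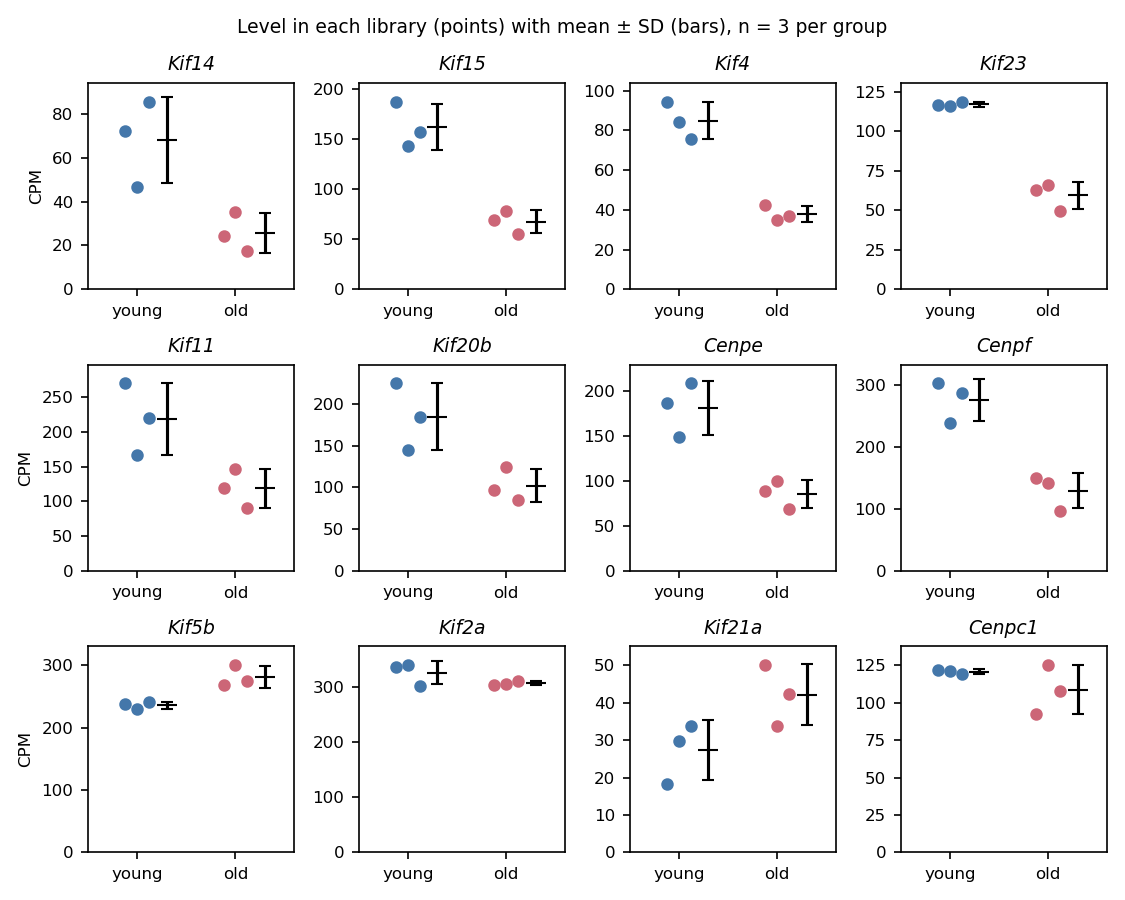
Level in CPM (vertical axis, from 0) of 12 genes in each library, with young libraries in blue, old in red, and mean ± SD bars in black (n = 3 per group). The 6 called mitotic kinesins, Cenpe and Cenpf have no overlap between groups, while Kif2a and Cenpc1 overlap and Kif5b and Kif21a are higher in old libraries without passing the test.

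The libraries kept a similar order across the mitotic kinesins. Young replicate 1 was the highest young library for 7 of the 11 genes and young replicate 2 the lowest for 8. Among old libraries, replicate 2 was highest for 7 genes and replicate 3 lowest for 7. The number of calls depended on the libraries used: it was 3 without young replicate 3, without old replicate 1 or without old replicate 3, and 4 without young replicate 1. In the fits without a library, 0.54% to 1.15% of all genes were called lower. Kif15, Kif4 and Kif23 passed in all 11 alternatives to the reported fit, whereas Kif11 and Kif20b lost their calls when any of those 4 libraries was left out and Kif14 when any of the first 3 was. In those fits the log2 fold change was −0.88 to −0.70 for Kif11, −0.86 to −0.69 for Kif20b and −1.36 to −1.19 for Kif14.

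Markers of other bone marrow cells also differed between the groups. Over all genes tested, 1.54% were lower and 2.45% higher in old libraries. Of 12 tested monocyte and macrophage markers, 8 were lower in old libraries. The summed level of the 14 in the table was 79.4 to 94.8 CPM in young and 25.4 to 27.7 CPM in old libraries, and Adgre1, C1qb, Cd5l, Fcna and the untested Vsig4 were at 0 in every old library. Of 11 tested erythroid markers, 4 were lower, and the 14 in the table summed to 126 to 442 CPM in young and 88.1 to 100 CPM in old libraries, none being at 0 in every old library. Of 5 tested neutrophil markers, 4 were lower, and the 10 in the table summed to 16.7 to 240 CPM in young and 5.57 to 8.52 CPM in old libraries, with the untested Fcnb at 0 in every old library. A marker near 0 in the old libraries could pass the filter on low counts only through the young ones. Its direction was then fixed in advance. Young replicate 1 held the top value of the erythroid and neutrophil lists and the highest summed mitotic kinesin level. It had the lowest young sum of the monocyte and macrophage list, 79.4 CPM. B and plasma cell markers (17.4 to 21.9 CPM in young, 17.9 to 21.7 in old) and T and NK cell markers (13.0 to 22.3 in young, 8.38 to 12.7 in old) had no called member. Megakaryocyte and platelet markers summed to 242 to 311 CPM in young and 564 to 694 in old libraries, with 2 of 10 called higher. The part of these cells in the kinesin results was not tested. Without young replicate 1, 4 mitotic kinesins were called in place of 6, Kif11 went from −0.88 to −0.70 and Kif20b from −0.86 to −0.69, and the median over the class was −0.97. That fit called 1.13% of all genes lower, against 1.54% with every library. It cannot decide the part of these cells, because monocyte and macrophage markers summed higher in every young than in every old library.

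Promoter sequence is shown because 6 of 11 mitotic kinesins were called lower and 0 of 14 transport kinesins were called. Many genes of G2 and mitosis are known to carry a cell cycle homology region (CHR) near the transcription start, bound by the DREAM and MuvB complexes, and CCAAT boxes bound by NF-Y. RefSeq windows of the GRCm38.p6 build, from 250 bases before to 50 after each start, were found for 50 of the 57 genes and not for Kif13b, Kif19a, Kif20a, Kif21b, Kif28, Kif5a and Kif5b. The searched motifs were the CHR core TTTGAA or TTCGAA, the CCAAT box CCAAT, and the E2F site TTTCCCGC or TTTGGCGC, each on both strands, and no motif contains another. Below are 180 bases of 7 windows, 5′ to 3′ on the strand of the gene, with the CHR core and CCAAT box in capitals (TTCAAA and ATTGG are the same motifs on the other strand). Kif11 (chr19:37376232-37376411, plus strand), Kif23 (chr9:61946770-61946949, minus strand), Kif4 (chrX:100625915-100626094, plus strand), Kif20b (chr19:34922208-34922387, plus strand) and Cenpf (chr1:189688057-189688236, minus strand) fell in old libraries. Kif3a (chr11:53567219-53567398, plus strand) and Kif13a (chr13:46929689-46929868, minus strand) are transport kinesins. Each stretch ends 30 bases after the start. The 7 genes were picked by hand and do not stand for their classes. Kif14, Kif15 and Cenpe also fell and are not shown.
Kif11: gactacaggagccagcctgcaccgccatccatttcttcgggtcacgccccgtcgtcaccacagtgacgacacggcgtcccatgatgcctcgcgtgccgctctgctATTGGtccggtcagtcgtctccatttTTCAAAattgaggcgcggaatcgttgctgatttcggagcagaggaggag
Kif23: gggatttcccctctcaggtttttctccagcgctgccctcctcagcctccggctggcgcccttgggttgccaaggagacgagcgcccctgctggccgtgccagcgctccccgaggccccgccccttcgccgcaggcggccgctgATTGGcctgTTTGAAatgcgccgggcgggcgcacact
Kif4: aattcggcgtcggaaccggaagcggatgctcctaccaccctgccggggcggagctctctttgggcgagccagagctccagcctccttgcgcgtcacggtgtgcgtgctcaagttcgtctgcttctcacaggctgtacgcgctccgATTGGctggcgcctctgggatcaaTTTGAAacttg
Kif20b: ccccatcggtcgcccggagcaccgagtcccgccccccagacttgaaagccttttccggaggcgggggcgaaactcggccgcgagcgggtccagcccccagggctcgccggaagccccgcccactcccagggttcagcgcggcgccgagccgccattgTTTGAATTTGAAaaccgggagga
Cenpf: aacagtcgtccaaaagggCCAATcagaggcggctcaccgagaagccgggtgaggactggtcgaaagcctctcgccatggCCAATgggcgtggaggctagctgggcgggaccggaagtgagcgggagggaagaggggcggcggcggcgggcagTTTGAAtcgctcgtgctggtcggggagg
Kif3a: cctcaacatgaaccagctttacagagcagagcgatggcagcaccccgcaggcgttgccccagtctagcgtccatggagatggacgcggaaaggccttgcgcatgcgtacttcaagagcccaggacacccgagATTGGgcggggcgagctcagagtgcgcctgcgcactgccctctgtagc
Kif13a: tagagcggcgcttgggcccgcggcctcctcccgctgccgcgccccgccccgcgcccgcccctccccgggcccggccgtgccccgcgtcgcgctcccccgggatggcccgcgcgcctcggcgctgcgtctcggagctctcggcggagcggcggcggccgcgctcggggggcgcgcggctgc

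In Kif11 the CHR core lies 19 bases before the start, and in Kif23, Cenpf, Kif20b and Kif4 it begins 2, 2, 7 and 19 bases after it. Kif20b has a CHR core repeated in tandem, the next copy beginning 13 bases after the start. Kif3a has a CCAAT box on the other strand and no CHR core, and Kif13a has neither. Over whole windows, the CHR core was found in 9 of 10 mitotic kinesin windows and in 1 of 13 transport kinesin windows (7.69%), that of the untested Kif1a. It was found in 19.2% of all 32851 windows and in 15.1% of the 14023 windows of genes tested. Kif18a was the mitotic kinesin without a CHR core, and its window held an E2F site.

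A CHR core that began within 25 bases of the start, a distance chosen after the positions were seen, was present in 7 of 10 mitotic kinesin windows, 0 of 13 transport kinesin windows and 2.90% of all windows. Among the 8 members called lower, 6 windows had it. The motif and the call did not go together throughout: Kif22 has a CHR core 17 bases before the start and its log2 fold change was −0.31, while Cenpe has none and fell. Kif14 also fell, and the CHR core in its window lies 228 bases before the start. CCAAT boxes were in 6 of 10 mitotic, 4 of 13 transport and 14 of 18 inner kinetochore windows, against 37.4% of all windows. E2F sites were in 2 mitotic, 0 transport and 3 inner kinetochore windows, against 1.56% of all. A match to these letters is a description of the sequence and does not show that a factor binds there.

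**Figure D3:**
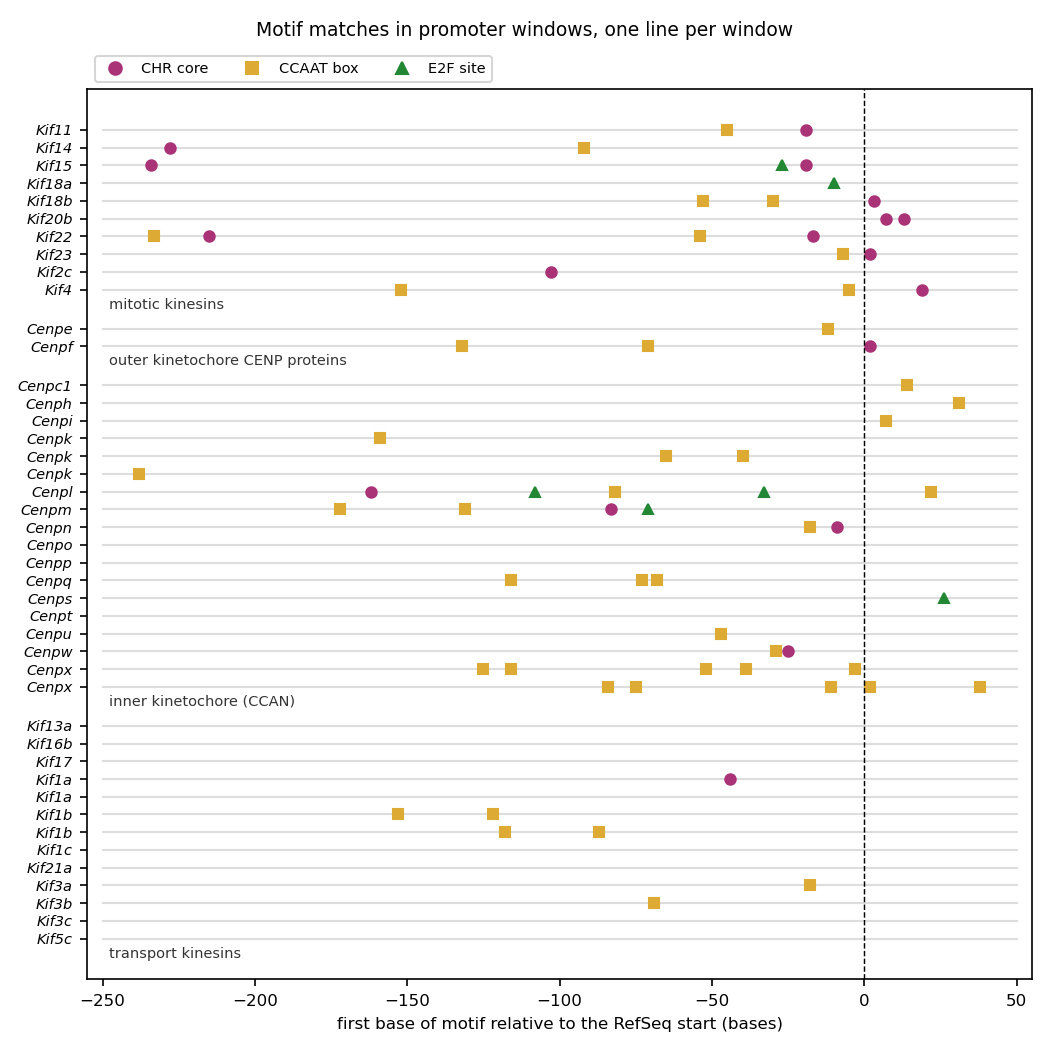
Position of the first base of each motif match in the promoter windows (horizontal axis, bases from the RefSeq start), with a line per window and windows grouped by class; circles mark CHR cores, squares CCAAT boxes and triangles E2F sites. CHR cores cluster around the start in the mitotic kinesins and are absent from the tested transport kinesins with a window.

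Among the transport kinesins, 10 of the 14 tested had a log2 fold change above 0, and the range was −0.97 to 0.98. Kif5b, the ubiquitous heavy chain of kinesin-1, read 238, 229 and 240 CPM in young and 269, 301 and 274 CPM in old libraries. All old libraries were above all young libraries, by a small step, and the log2 fold change of 0.25 (95% interval 0.03 to 0.47) did not pass the test (adjusted p = 0.23 with edgeR). Kif21a, a kinesin-4 that restrains microtubule growth at the cell cortex, read 18.3, 29.8 and 33.8 CPM in young and 50.1, 33.9 and 42.4 CPM in old libraries. Young replicate 3 and old replicate 2 were nearly equal, and the change was 0.63 ± 0.25 (SE; adjusted p = 0.22 with edgeR), the nearest to the threshold in its class. These were the 2 transport kinesins without overlap, both higher in old libraries, where 11.6% of all genes tested were so. They were also the 2 with an unadjusted p under 0.05, where 8.84% of all genes had such a p and were higher. DESeq2, by which 3.22% of all genes were lower and 4.25% higher, called 0 of the 14.

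The kinesin-3 motors of endosomes and synaptic-vesicle precursors had 0 calls. Kif13a averaged 88.6 ± 6.36 CPM in young and 84.9 ± 11.6 CPM in old libraries (SD, n = 3 each), Kif13b 61.3 ± 8.58 and 65.2 ± 3.19 CPM, and Kif16b 60.4 ± 11.1 and 63.7 ± 3.25 CPM. Kif1b averaged 66.7 ± 3.85 CPM in young libraries and ranged from 60.7 to 99.4 CPM in old ones. Kif1c averaged 14.9 ± 1.77 CPM in young and 18 ± 1.93 CPM in old libraries (SD, n = 3 each), a log2 fold change of 0.27 with overlapping groups. In the heterotrimeric kinesin-2 motor of intraflagellar transport, Kif3a had a log2 fold change of 0.28, Kif3b of −0.14 and their adaptor Kifap3 of 0.25, all with overlapping groups. For 10 of the 14, the 95% interval lay inside a 2-fold change in either direction, so larger changes in those genes lie outside the intervals. The intervals of Kif5a, Kif5c, Kif17 and Kif21a reached past a 2-fold change. That of Kif21a ran from 0.09 to 1.17, wholly above 0. Kif5a, Kif5c and Kif17, at 0.587 to 5.17 CPM in young libraries, had the lowest CPM of the tested members of the class.

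Set side by side within each library, the balance of the 2 classes differed between the ages. The summed level of the 11 mitotic kinesins was 1122, 821 and 986 CPM in the young and 507, 579 and 416 CPM in the old libraries, a ratio of old to young means of 0.513. That of the 16 transport kinesins was 683, 731 and 785 CPM in young and 810, 801 and 834 CPM in old libraries, a ratio of 1.11. Mitotic kinesins made up 46.7% ± 4.54 of all kinesin CPM in young libraries and 30.2% ± 3.77 in old ones (SD, n = 3 each), and transport kinesins 35.3% ± 3.45 and 49.3% ± 2.96. Mitotic over transport CPM was 1.64, 1.12 and 1.26 in young and 0.626, 0.722 and 0.499 in old libraries. It was thus above 1 in every young library and below 1 in every old library. Where the quotient lies against 1 depends on which genes each class holds and on their lengths. Kif2a, which also acts at spindle poles, was in neither class. It read 336, 341 and 303 CPM in young and 305, 305 and 312 CPM in old libraries. These shares and quotients within a library do not depend on the scaling of library sizes. No test was run on these sums, because the classes were chosen with earlier results known.

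**Figure D4:**
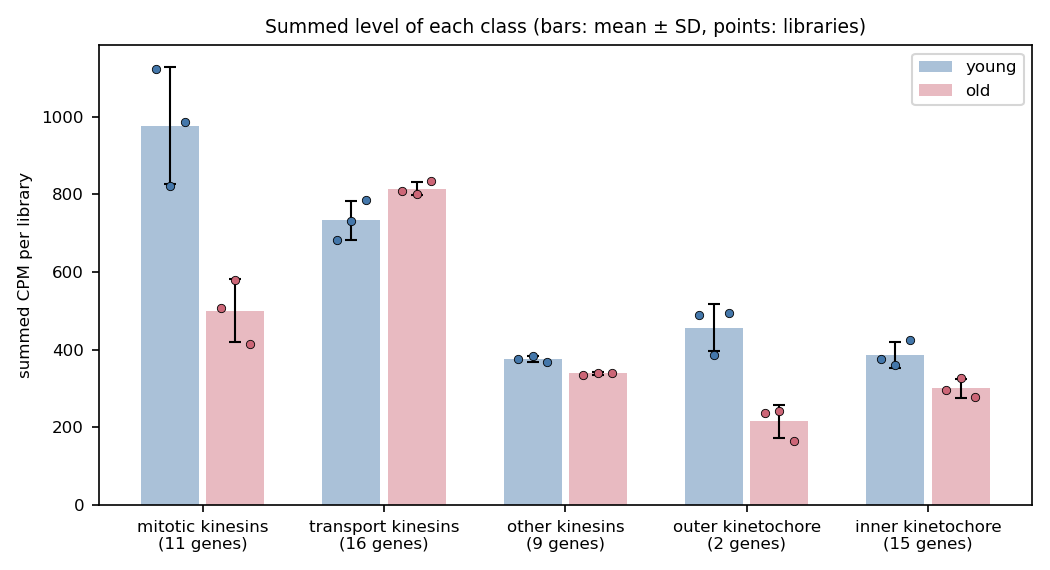
Summed CPM per library (vertical axis, from 0) of 5 gene classes, with young in blue and old in red; bars are means, error bars SD and points the 3 libraries of each group. Mitotic kinesins averaged 977 CPM in young and 501 CPM in old libraries, the outer kinetochore pair 457 and 215 CPM, and transport kinesins 733 and 815 CPM.

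The 9 other kinesins had 7 tested members and 0 calls in edgeR or DESeq2, a median of −0.29 and 1 unadjusted p under 0.05, that of Kif24. Of all genes tested, 7.63% had such a p and were lower. Kif2a, a kinesin-13 that takes microtubules apart both in neurons and at spindle poles, read 336, 341 and 303 CPM in young and 305, 305 and 312 CPM in old libraries. The groups overlapped, and the log2 fold change was −0.09 (95% interval −0.30 to 0.13). Kif24, a kinesin-13 of the mother centriole that restrains cilium growth, read 24.6, 20.4 and 34.0 CPM in young and 10.8, 23.5 and 9.39 CPM in old libraries. Old replicate 2 stood among the young values, and the change was −0.87 (adjusted p = 0.228 with edgeR), which became −1.38 (adjusted p = 0.0448 with edgeR) without that library. Kif6, Kif7, Kif9, Kif19a and Kif26b were at 0.406 to 10.4 CPM in young libraries and had wide intervals. Kif1bp had a log2 fold change of −0.19 with overlapping groups.

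Per kilobase of exon, the scale on which genes can be compared, Kif2a was the most abundant member in both groups, at 51.1 ± 3.26 CPM per kb in young and 48.1 ± 0.626 in old libraries (SD, n = 3 each). Kif5b followed in both, at 29.6 ± 0.732 and 35.2 ± 2.15 CPM per kb. In young libraries Kif11 came next at 29.3 ± 6.94 CPM per kb, not apart from Kif5b beyond its spread, and Kif20b at 26.5 ± 5.73. In old libraries these were 15.9 ± 3.72 and 14.6 ± 2.87 CPM per kb, below Cenpc1 at 19.3 ± 2.90, though within 1 SD of it for Kif11. Kif15 went from the 10th to the 19th place and Kif14 from the 22nd to the 37th.

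The 20 Cenp genes divide by their place in the kinetochore, the protein plate that grips microtubules. Its outer, fibrous layer contains CENP-E and CENP-F, which are loaded as mitosis begins, and its inner layer is the constitutive centromere-associated network (CCAN), which sits on centromeric chromatin through the cell cycle. Of the 20 genes, 2 fell and none rose, 18 had a log2 fold change below 0, and the median was −0.54. In 8 the groups did not overlap, all lower in old libraries. Over all genes tested, 1.54% fell, 51.8% lay below 0 and 10.8% were lower without overlap.

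Both calls were the outer kinetochore proteins. Cenpe (ENSMUSG00000045328.11, chr3:135212537-135273611), itself a kinesin-7 motor that carries chromosomes to the spindle equator, read 186, 149 and 208 CPM in young and 88.3, 99.6 and 69.1 CPM in old libraries. Cenpf (ENSMUSG00000026605.14, chr1:189640606-189688086), a very long coiled-coil protein that anchors dynein regulators at the kinetochore, read 303, 238 and 287 CPM in young and 150, 142 and 97.0 CPM in old libraries. In each the lowest young library stood well above the highest old one. The log2 fold changes were −1.08 ± 0.17 and −1.09 ± 0.17 (SE; adjusted p = 0.00339 and 0.00318 with edgeR), close to that of Kif4, and both passed in all 11 alternatives.

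None of the 15 CCAN genes passed in edgeR. Of the 15, 6 had an unadjusted p under 0.05, all lower, against 7.63% of all genes tested. DESeq2 called 3 (Cenph, Cenpi and Cenpn), where it called 3.22% of all genes lower. The log2 fold changes were below 0 in 14 of the 15, with a median of −0.61 and a range of −1.64 to 0.21. CENP-C, encoded by Cenpc1, which links centromeric nucleosomes to the outer kinetochore, averaged 121 ± 1.61 CPM in young and 109 ± 16.4 CPM in old libraries (SD, n = 3 each). The 4 genes of the CENP-H, I, K and M sub-complex, a scaffold between CENP-C and the rest, all lacked overlap. Cenpi, nearest to the threshold, read 26.1, 13.7 and 22.3 CPM in young and 11.9, 5.96 and 4.81 CPM in old libraries (−1.45, adjusted p = 0.0572 with edgeR). It passed in DESeq2, without young replicate 2 (adjusted p = 0.0447 with edgeR) and without old replicate 1 (adjusted p = 0.0299 with edgeR). Cenph, Cenpk and Cenpm had log2 fold changes of −1.36, −0.99 and −1.57. The Cenpm difference came largely from young replicate 3, at 10.6 CPM. The other young libraries read 2.80 and 3.25 CPM, and the old ones 2.45, 1.43 and 1.69 CPM (adjusted p = 0.196 with edgeR). Summed over the 4 genes, the level was 57.2 ± 11.3 CPM in young and 23.1 ± 8.49 CPM in old libraries (SD, n = 3 each).

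Over all 15 CCAN genes, 6 lacked overlap, all lower in old libraries, where 10.8% of all genes tested were so. Among the other CCAN branches, 2 genes lacked overlap. The nucleosome reader Cenpn (−0.92) was 1 of them, while the groups of its partner Cenpl (−0.14) overlapped. Of the CENP-O, P, Q and U group none lacked overlap, and its summed level was 87.3 ± 18 CPM in young and 68.7 ± 19.6 CPM in old libraries (SD, n = 3 each). In the histone-fold group of CENP-T, W, S and X, Cenps was the gene without overlap (−1.64), with young libraries averaging 4.36 ± 1.34 CPM and old libraries 1.38 ± 0.575 CPM (SD, n = 3 each). Cenpt, which like CENP-C reaches the outer kinetochore, was the CCAN gene above 0 (0.21). The CCAN genes had a median young level of 20.7 CPM and the mitotic kinesins 68.0 CPM, with fewer counts behind the CCAN values.

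The remaining Cenp genes, which do other things, were not called by edgeR or DESeq2, and none had an unadjusted p under 0.05. Cenpb, which binds a motif in satellite DNA, had a log2 fold change of 0.18, Cenpj, a builder of centrioles, of −0.13, and Cenpv, a protein of the spindle midzone, of −0.48. Their groups overlapped in every case.

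Genes that work with these proteins were taken from lists of known partners. Of 20 kinetochore partners, 5 fell and none rose (Knl1, Kntc1, Sgo2a, Ndc80 and Zwilch), and the median over the 20 was −0.76. Over all genes tested, 1.54% fell. Knl1, the scaffold of the outer kinetochore, read 239, 205 and 227 CPM in young and 97.1, 113 and 79.7 CPM in old libraries (−1.21 ± 0.14 SE; adjusted p = 0.000597 with edgeR). Kntc1, the Rod subunit of the complex that brings dynein and checkpoint proteins to kinetochores, read 126, 105 and 127 CPM in young and 52.3, 50.3 and 40.9 CPM in old libraries (−1.32 ± 0.15 SE; adjusted p = 0.000555 with edgeR). The old values of both were far below the young ones. Mis12, a core subunit of the outer plate, had a log2 fold change of 0.03.

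Among factors that load centromeric chromatin, Hjurp, the chaperone of the centromeric histone, and Oip5 had log2 fold changes of −0.39 and −0.98 with no overlap but did not pass (adjusted p = 0.0739 and 0.22 with edgeR). Of 5 partners of mitotic motors, 3 fell: Nusap1 (−1.24) and Tpx2 (−1.08), which promote spindle microtubules, and Prc1 (−0.94), which bundles the central spindle on which Kif4 acts. Racgap1, the partner of Kif23 in centralspindlin, and the minus-end motor Kifc1 were at −0.93 and −1.51 and did not pass (adjusted p = 0.0585 and 0.0606 with edgeR). All 5 were lower with no overlap, where 10.8% of all genes tested were so and 1.54% were called lower. Prc1 lost its call when any library except old replicate 2 was left out, with adjusted p-values of 0.0635 to 0.109 in edgeR and log2 fold changes of −0.99 to −0.69, and with no filter (adjusted p = 0.0518 with edgeR; −0.93).

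Partners of transport gave a different picture. The list of 11 kinesin light chains, adaptors and further motors had 10 tested genes, 0 calls in edgeR and a median of 0.04, with 2 unadjusted p-values under 0.05. These were Trak1, a mitochondrial adaptor (−0.52), and Klc3 (2.72), whose difference came from 10.7 CPM in old replicate 2 alone. Of all genes tested, 7.63% had such a p and were lower, and 8.84% had it and were higher. Trak1 was the gene that DESeq2 called, and it also passed without young replicate 1 (adjusted p = 0.0228 with edgeR). Of 19 subunits of cytoplasmic dynein and dynactin, the minus-end transport machine, 0 passed in edgeR or DESeq2, none had an unadjusted p under 0.05, and the median was 0.02. Dync1h1, the dynein heavy chain, averaged 766 ± 59.1 CPM in young and 765 ± 42.4 CPM in old libraries (SD, n = 3 each).

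The authors' deposited table of their own comparison, whose sign is that of young divided by old, called 13 of the members lower in old and 1 higher. There 2.60% of genes were lower and 3.57% higher. The authors' deposited table shared all 8 calls made here and added Kif2c, Cenph, Cenpi, Cenpn and Cenpu. It gave Kif14 a log2 fold change of 2.17 (young over old), larger in size than the −1.41 (old over young) from the counts. The base mean of Kif14 there was 1355, against 1014 from the deposited counts over size factors. How that table's fold changes were estimated is not known here, so the 2 sizes may not be like estimates. Kif21b, picked out after its values were seen, was the 1 member higher in old in the authors' deposited table, with −1.20 (young over old; adjusted p = 0.00304). The deposited counts gave −0.20 (old over young; adjusted p = 0.805 with edgeR), from 26.6, 36.9 and 64.6 CPM in young and 30.9, 34.5 and 46.3 CPM in old libraries, which overlap. For Kif21b the base mean of the authors' deposited table was 1083, against 865 from the deposited counts over size factors. Base means in the authors' deposited table lay within 2% of the counts for 32 of the 53 tested members, and 8 of the 53 had the opposite sign there. These were Kif22, Cenpt, Kif19a, Kif13a, Kif13b, Kif16b, Kif21b and Kif3c. Kif22, the mitotic kinesin among them, had −0.12 (young over old) there and was not called.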

How the data were processed

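RNA was sequenced from 3 young and 3 old HSC samples on a low-input kit as 50-base single-end reads, per the labels. The authors deposited estimated counts per gene, all whole numbers, so none were rounded. A second deposited table held the authors' base mean (a normalised signal), log2 fold change with its standard error, test score and p-value. Salmon, DESeq2, FastQC, MultiQC and the build GRCm38 are named per the submitters' processing notes, without versions or roles. Columns were assigned to samples by title. Coordinates and symbols are from GENCODE M21 (GRCm38), counted from 1.

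The count test was edgeR 4.0.16's quasi-likelihood F test in R 4.3.3, two-sided, with Benjamini-Hochberg adjustment over the 14288 genes left by its default filter (minimum count 10, total 15). TMM factors were 0.955 to 1.06, and CPM used TMM-scaled library sizes. Alternatives were library sizes alone, RLE factors, no filter, DESeq2 1.42.0, limma-voom 3.58.1 and leaving out each library. The reported edgeR fit, and none of the alternatives, was tested on simulated data. The p-values set the difference between the ages against the spread between these samples. Reads shared by near-identical genes could be split differently by the counting.

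Members and lists were chosen with earlier results of these data known. Named genes were every called member, the 4 most abundant and the one nearest to the threshold in each class, members left out by the filter, and the 3 smallest p-values of each partner list; further members were named to account for the whole set. A planned description of motor motifs in protein sequence was not run. Some genes of the lists are not reported here.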

Additional observations from a re-analysis of the deposited data

How the results depend on the processing

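Over 41 single genes taken by the naming rule and 11 alternatives each, 413 results kept direction and side of the threshold, 17 lost the call, 11 gained it and 10 changed sign; the cause was not tested. Transport kinesins and dynein had 0 calls in all 11 alternatives. The mitotic kinesins had 6 calls, 7 with library sizes alone, DESeq2 or limma-voom, and 3 to 6 when a library was left out. The Cenp genes had 2 calls, 5 in DESeq2 and 2 to 3 when a library was left out. Kinetochore partners had 5 calls, 8 in DESeq2 and 3 to 5 when a library was left out (3 without old replicate 1 or old replicate 3). Loading factors had 1 call, 2 with library sizes alone and 2 in DESeq2. Partners of mitotic motors had 3 calls, 5 in DESeq2, 4 with library sizes alone or limma-voom, 2 with no filter and 2 to 4 when a library was left out. Partners of transport motors had 0 calls, 1 in DESeq2 and 0 to 1 when a library was left out. With library sizes alone, the summed ratio of old to young was 1.07 in place of 1.11 for transport kinesins and 0.868 in place of 0.901 for other kinesins, and 2.09% of all genes were lower and 2.17% higher, in place of 1.54% and 2.45%. Signs changed only for uncalled genes near 0 or with wide intervals, when a library was left out. Over the 6 such fits Cenpj ranged from −0.42 to 0.11 (above 0 without old replicate 3), Cenpq from −0.31 to 0.17 (above 0 without young replicate 3, old 1 or old 3), and Cenpw from −0.25 to 0.069 (above 0 without young replicate 3 or old 2). Kif13a ranged from −0.17 to 0.015 (above 0 without old replicate 1), Kif13b from −0.0028 to 0.20 (below 0 without young replicate 1), Kif7 from −0.54 to 0.0014 (above 0 without old replicate 2) and Kif9 from −0.86 to 0.23 (above 0 without young replicate 3). Young replicate 2 carries different library numbers in its title and its description, and without it the mitotic kinesins had 6 calls. No paired analysis was possible because the labels number no replicates across the ages. Old replicate 2 had the fewest counts, and what depth limits in single genes was not tested.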
